A study of Mus musculus with 20 samples.

Results

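The 9 genes described here encode transcription factors that establish and hold the hepatocyte state: *Hnf4a*, *Foxa1*, *Foxa2*, *Foxa3*, *Cebpa*, *Cebpb*, *Onecut1*, *Prox1* and *Nr5a2*. They were chosen with earlier results of these data known. Every probe set annotated to them alone was taken, which gave 19 of 45101 probe sets and 9 of 18194 genes. Liver RNA was measured on 1 array per liver in 10 *IMP2-2* transgenic (tg) and 10 wildtype (wt) mice. All animals were untreated, 5 weeks old and of mixed C57Bl6J/DBA2 background. The tg mice carry IMP2-2, also called p62, a splice variant of the *IGF2* mRNA binding protein IMP2, expressed in the liver. Which promoter drives the transgene is not given in the labels or methods.

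In the adult hepatocyte these factors bind each other's promoters and the enhancers of liver genes as a dense mutual network. FOXA proteins are pioneer factors that open chromatin in foregut endoderm, and ONECUT1 and PROX1 act in the hepatoblast, where the hepatocyte and the bile duct lineages part. HNF4A, C/EBPα and NR5A2 then maintain the metabolic program, and loss of HNF4A activity is a textbook feature of hepatocytes that lose their mature state. The comparison asks whether the RNA of these factors differs between tg and wt livers, which bears on the idea of a de-differentiated liver that the study raised.

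In these livers, none of the 19 probe sets passed the test. The 9 factors were present in every liver, and the tg and wt ranges overlapped for each of them. With limma and Benjamini-Hochberg adjustment over all probe sets, 0 of 19 had an adjusted p under 0.05, against 2.55% of all probe sets in either direction, 1.88% higher and 0.663% lower in tg. At an unadjusted p under 0.05 the count was 1 of 19, *Cebpa*, against 20.4% of all probe sets. An exact permutation test over livers likewise had 1 probe set under that level, again *Cebpa*.

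Levels are log2 signals after RMA, the authors' normalization, so a difference of 1 is a doubling of signal. Levels are compared within a probe set and not between genes. The mean ± SD counts 8 wt profiles, since wt_1407_2 and wt_1420_6, and likewise wt_1407_5 and wt_1420_7, were nearly identical arrays and each such pair was averaged. The log2 differences and their 95% intervals come from limma on all 20 arrays, so a difference can depart slightly from that of the 2 printed means. In addition, tg_1386_9 and wt_1386_4, which carry opposite labels, were the closest of all pairs of arrays. The SD of their log2 difference was 0.155, against 0.168 and 0.172 for the averaged wt pairs. The next closest tg and wt arrays had 0.228. Both tg_1386_9 and wt_1386_4 were kept under their labels in the main tests, and why they are so alike was not tested. Results without them are given where they matter. A further 4 livers whose names share a number, tg_1423_2-8_1, tg_1423_2-8_4, wt_1423_2-8_3 and wt_1423_2-8_9, are called set S here, since their removal lowered the number of called probe sets from 1149 to 74.

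The start regions of 5 windows are shown because members of the network carry recognition letters for one another there. Each line is the 250 bases before a RefSeq transcript start of build GRCm38.p6, 5′ to 3′ on the gene's strand, with matches in capitals.
Hnf4a, distal start (chr2:163506607-163506856, plus strand): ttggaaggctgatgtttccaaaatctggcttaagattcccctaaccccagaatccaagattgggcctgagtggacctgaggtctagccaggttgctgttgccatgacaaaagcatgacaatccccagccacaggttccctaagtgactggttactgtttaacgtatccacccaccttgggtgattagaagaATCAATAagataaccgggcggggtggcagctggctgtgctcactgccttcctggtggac
Hnf4a, proximal start (chr2:163546905-163547154, plus strand): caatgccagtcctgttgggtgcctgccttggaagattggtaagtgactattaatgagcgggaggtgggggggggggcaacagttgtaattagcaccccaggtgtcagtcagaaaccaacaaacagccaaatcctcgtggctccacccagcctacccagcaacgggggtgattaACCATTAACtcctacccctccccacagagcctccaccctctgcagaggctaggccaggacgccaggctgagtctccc
Foxa1 (chr12:57546112-57546361, minus strand): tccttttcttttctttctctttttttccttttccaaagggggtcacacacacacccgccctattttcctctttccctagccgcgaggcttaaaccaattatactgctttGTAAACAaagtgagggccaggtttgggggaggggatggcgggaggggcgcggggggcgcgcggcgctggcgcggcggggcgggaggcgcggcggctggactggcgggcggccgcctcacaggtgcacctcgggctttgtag
Foxa2, most upstream start (chr2:148046970-148047219, minus strand): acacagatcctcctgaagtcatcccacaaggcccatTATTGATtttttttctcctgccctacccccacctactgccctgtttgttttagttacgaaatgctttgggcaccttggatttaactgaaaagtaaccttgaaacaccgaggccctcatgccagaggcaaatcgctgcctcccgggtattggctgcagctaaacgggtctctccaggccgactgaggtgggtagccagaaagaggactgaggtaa
Foxa2, most downstream start (chr2:148045465-148045714, minus strand): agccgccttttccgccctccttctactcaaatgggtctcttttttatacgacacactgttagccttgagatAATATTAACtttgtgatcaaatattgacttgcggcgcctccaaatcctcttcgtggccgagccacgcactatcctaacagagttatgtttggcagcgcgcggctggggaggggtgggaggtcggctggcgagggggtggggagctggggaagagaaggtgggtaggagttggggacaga

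The letters searched, on both strands, were CAAAGTCCA for HNF4A, TGTTTAC for FOXA, TTGCNNAA for C/EBP, TATTGAT for ONECUT, CAAGGTCA for NR5A2 and GTTAATNNT for HNF1. No overlap between motifs occurred in the windows shown. The distal *Hnf4a* window held the ONECUT letters 59 to 53 bases before the start, and the proximal window held the HNF1 letters 77 to 69 bases before it. The *Foxa1* window held the FOXA letters 141 to 135 bases before the start. At *Foxa2*, the ONECUT letters stood 214 to 208 bases before the most upstream start and the HNF1 letters 179 to 171 bases before the most downstream one. Of 32851 windows in the table, 1.86% held the ONECUT letters, 2.27% the HNF1 letters, 3.17% the FOXA letters, 9.56% the C/EBP letters, 1.33% the NR5A2 letters and 0.384% the HNF4A letters. In all, 7 of the 14 member windows, which belong to 9 genes, held at least 1 of the motifs. The share of all windows with at least 1 of the motifs was not computed, so this count has no background beside it. The other 2 with a match were those of *Nr5a2*, with HNF1 letters in one and C/EBP letters in the other. These matches are letters only, and binding was not measured.

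*Hnf4a*, the nuclear receptor at the centre of the adult program, was the steadiest of the main probe sets. Its probe set 1427001_s_at ran from 11.09 to 11.60 in tg livers (median 11.38) and from 11.09 to 11.77 in wt livers (median 11.22). The groups overlapped, and tg_1420_12 alone fell just below the lowest wt array. The means were 11.37 ± 0.20 (SD, n = 10) in tg and 11.32 ± 0.23 (SD, n = 8) in wt. The log2 difference was 0.07 with an interval of -0.11 to 0.25 (limma, adjusted p = 0.701), which is a fold of 1.05 between 0.925 and 1.19. The 20 arrays do not exclude differences within that interval, and the smallest difference that could have been called was not computed.

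The other 3 *Hnf4a* probe sets gave differences of 0.14 (1427000_at), 0.08 (1421983_s_at) and -0.10 (1450447_at). Adjusted p values in limma lay between 0.356 and 0.665. Over the profiles, with genotype means removed, 1427001_s_at followed 1427000_at (r = 0.72, n = 18) and 1421983_s_at (r = 0.75), whereas 1427000_at and 1450447_at were unrelated (r = -0.01). The probe set 1427000_at held 1 tg liver far above the rest, tg_1423_2-8_1 at 10.71.

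**Figure D1:**
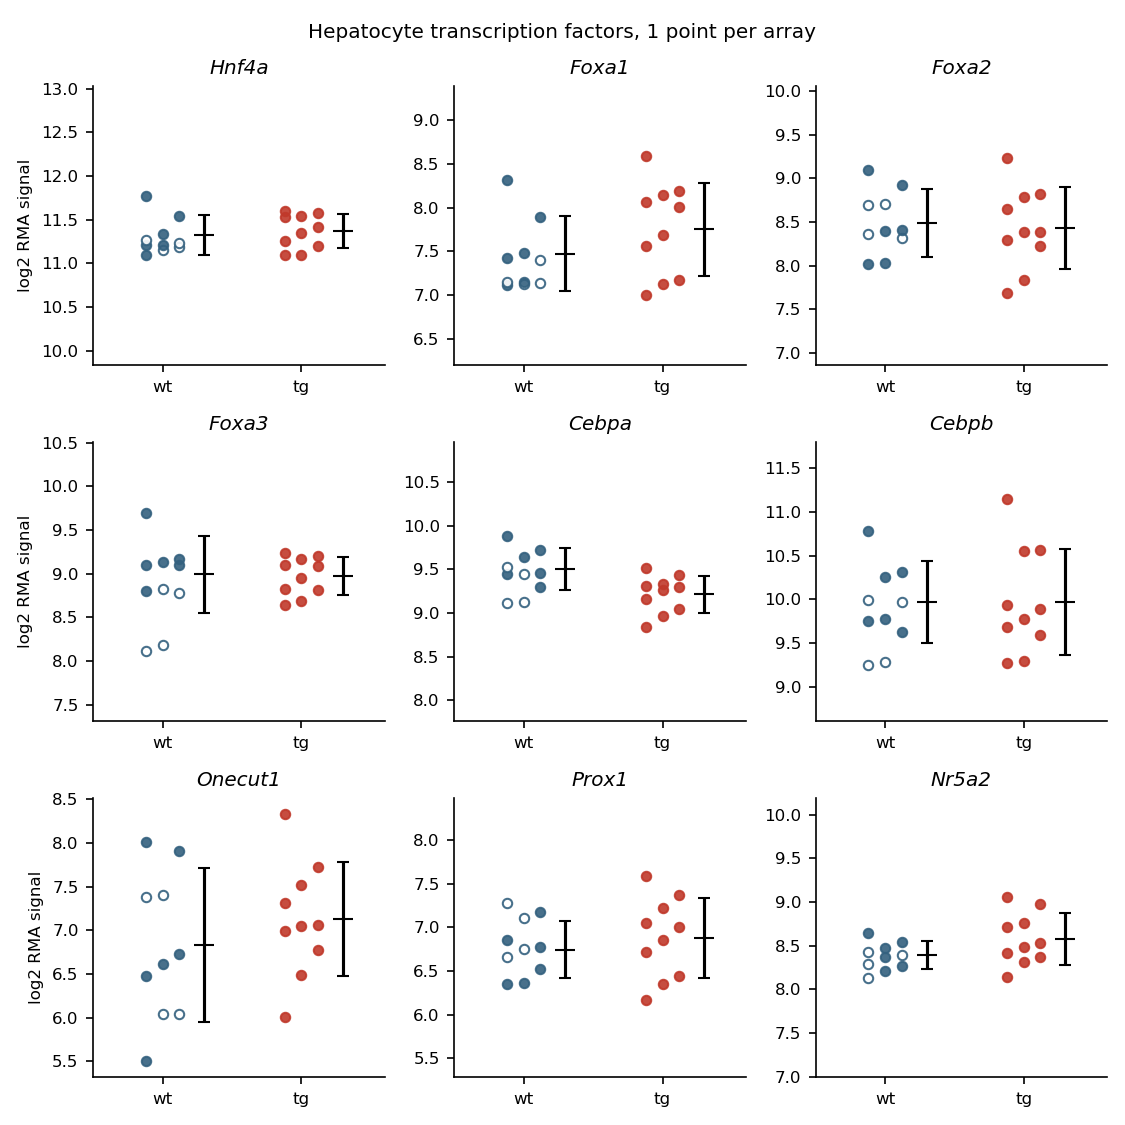
Log2 RMA signal (y axes, each spanning 3.2 log2 units) of the main probe set of the 9 factors in wt and tg livers, 1 point per array, with mean and SD beside each group (n = 8 wt profiles, 10 tg livers). Open points are the 4 nearly identical wt arrays. The genotypes overlap in every panel; *Onecut1* spreads widest and *Hnf4a* and *Cebpa* are among the tightest.

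Of the FOXA factors, which open liver chromatin, *Foxa1* had the highest estimate and the widest interval. It ran from 7.0 to 8.59 in tg livers (median 7.85) and from 7.11 to 8.32 in wt livers (median 7.28). The livers did not form separate groups: tg_1420_4 was above every wt array, and tg_14231_6 was below every one. The means were 7.75 ± 0.53 (SD, n = 10) and 7.47 ± 0.43 (SD, n = 8), and the log2 difference of 0.34 had an interval of -0.07 to 0.74 (limma, adjusted p = 0.339). Each liver carries 1 of 6 numbers in its name, whose meaning the labels leave unsaid, and every number occurs in both genotypes. *Foxa1* was higher in tg within 5 of these 6 numbers. Its difference was 0.21 without set S and 0.098 without tg_1420_4 and both tg livers of set S.

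*Foxa2*, which also controls the fasting response of the liver, ran from 7.68 to 9.23 in tg (median 8.38) and from 8.02 to 9.09 in wt (median 8.40). One wide band held both genotypes, with tg_1407_9 and tg_14231_6 below and tg_1420_4 above the wt range. The log2 difference was -0.06, from -0.42 to 0.29 (limma, adjusted p = 0.871). *Foxa3*, the most liver-restricted FOXA gene in adults, ran from 8.64 to 9.24 in tg (median 9.02) and from 8.12 to 9.70 in wt (median 8.96), so that all tg livers lay inside the wt range. Its log2 difference was 0.08, from -0.23 to 0.40 (limma, adjusted p = 0.799), and its sign turned to -0.02 when the nearly identical wt arrays were counted once.

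*Cebpa*, which drives metabolic genes and restrains hepatocyte division, was the member closest to a call. It ran from 8.83 to 9.51 in tg livers (median 9.29) and from 9.11 to 9.88 in wt livers (median 9.45). The groups shared most of their range: tg_1407_9, tg_1420_4 and tg_1423_2-8_1 were below every wt array, and no tg liver was above the wt range. The means were 9.22 ± 0.21 (SD, n = 10) and 9.51 ± 0.24 (SD, n = 8). The log2 difference of -0.25, with an interval of -0.45 to -0.05 and a fold of 0.841, had an unadjusted p of 0.0181 and an adjusted p of 0.152 in limma. The exact permutation test gave p = 0.0160 for 1 gene without adjustment. *Cebpa* was lower in tg within 5 of the 6 shared numbers, between -0.69 in set S and 0.06 for tg_1386_9 against wt_1386_4. As said for *Foxa1*, these numbers are not separate comparisons. Without the 4 livers of set S the difference was -0.14 (limma, adjusted p = 0.573).

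*Cebpb*, the C/EBP factor of the acute phase and of regeneration, ran from 9.27 to 11.15 in tg (median 9.83) and from 9.25 to 10.78 in wt (median 9.87). The livers spread over almost the same span in both genotypes, and tg_14231_6 alone exceeded the wt range. The log2 difference was 0.07, from -0.39 to 0.53 (limma, adjusted p = 0.891). Within the 6 shared numbers it ran from -0.96 to 0.92, and it was 0.33 without set S and 0.28 without tg_1420_4 and both tg livers of set S. The second probe set, 1427844_a_at, gave 0.01 and followed the first closely (r = 0.98, n = 18). C/EBPβ is also a factor of macrophages, and all 9 macrophage and Kupffer cell markers were higher in tg at an unadjusted p under 0.05, 6 of them called (*Clec4f*, *Cd5l*, *C1qa*, *Cd68*, *Vsig4* and *Marco*). Their mean level ran from 7.71 to 8.49 in tg and from 7.37 to 8.03 in wt, with 0 of the 9 below the array-wide median. Their part in the *Cebpb* values was not tested. In whole liver, fewer cells of a type and less RNA per cell cannot be told apart.

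*Onecut1*, or HNF6, a cut-homeodomain factor of the hepatoblast, varied most. It ran from 6.0 to 8.33 in tg livers (median 7.06) and from 5.5 to 8.01 in wt livers (median 6.67). High and low livers occurred in both genotypes, and 1 tg liver, tg_1407_3, exceeded the wt range. The SD between livers within a genotype, 0.754, was larger than that of 98.4% of the probe sets above the array-wide median. The log2 difference was 0.32 with an interval of -0.33 to 0.96 (limma, adjusted p = 0.594), which spans folds from 0.798 to 1.94. It came to 0.17 without wt_1423_2-8_3, 0.18 without tg_1407_3 and 0.10 without set S, where the second probe set gave 0.0061. That second probe set, 1450252_at, gave 0.17 over all arrays and followed the first (r = 0.93, n = 18).

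*Prox1*, a homeodomain factor of the hepatoblast that also marks lymphatic endothelium, ran from 6.17 to 7.59 in tg (median 6.93) and from 6.35 to 7.27 in wt (median 6.76). The tg livers reached past the wt range on both sides, above it in tg_1423_2-8_1 and tg_1423_2-8_4 and below it in tg_14231_6. The log2 difference was 0.09, from -0.25 to 0.44 (limma, adjusted p = 0.786), and it was -0.01 without set S. The other probe sets, 1457432_at and 1421336_at, gave 0.01 and 0.01. Of 9 endothelial markers, 1 was called, *Lyve1* of sinusoidal and lymphatic endothelium, higher in tg by 1.0 log2 (limma, adjusted p = 0.0214). At an unadjusted p under 0.05 there were 2 higher and 1 lower, with a median of 0.09. *Stab2* (0.05) and *Clec4g* (0.01) of the sinusoids and *Flt4* of lymphatic vessels (0.10, mean signal 6.92) were not called. The lymphatic marker *Pdpn* stood at 4.0 ± 0.20 (SD, n = 10) in tg and 4.15 ± 0.21 (SD, n = 8) in wt, under the array-wide median of 4.53. Their part in the *Prox1* values was not tested.

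*Nr5a2*, or LRH-1, a nuclear receptor of bile acid and cholesterol genes, had probe sets that pointed in opposite directions. The main one, 1456521_at, ran from 8.14 to 9.05 in tg livers (median 8.51) and from 8.13 to 8.64 in wt livers (median 8.38). The lower parts of both groups coincided, while tg_1423_2-8_4, tg_1423_2-8_1, tg_1420_4 and tg_1407_9 were above every wt array. The log2 difference was 0.20 with an interval of -0.0038 to 0.41 (limma, unadjusted p = 0.0540, adjusted p = 0.255). It came to 0.05 once tg_1420_4 and both tg livers of set S were left out. The probe set 1420410_at gave -0.13, 1449706_s_at gave -0.05 and 1449707_at, near the lowest signals of the array, gave 0.02. The first 2 followed each other only in part (r = 0.46, n = 18), and the mean of all 4 probe sets differed by 0.01.

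**Figure D2:**
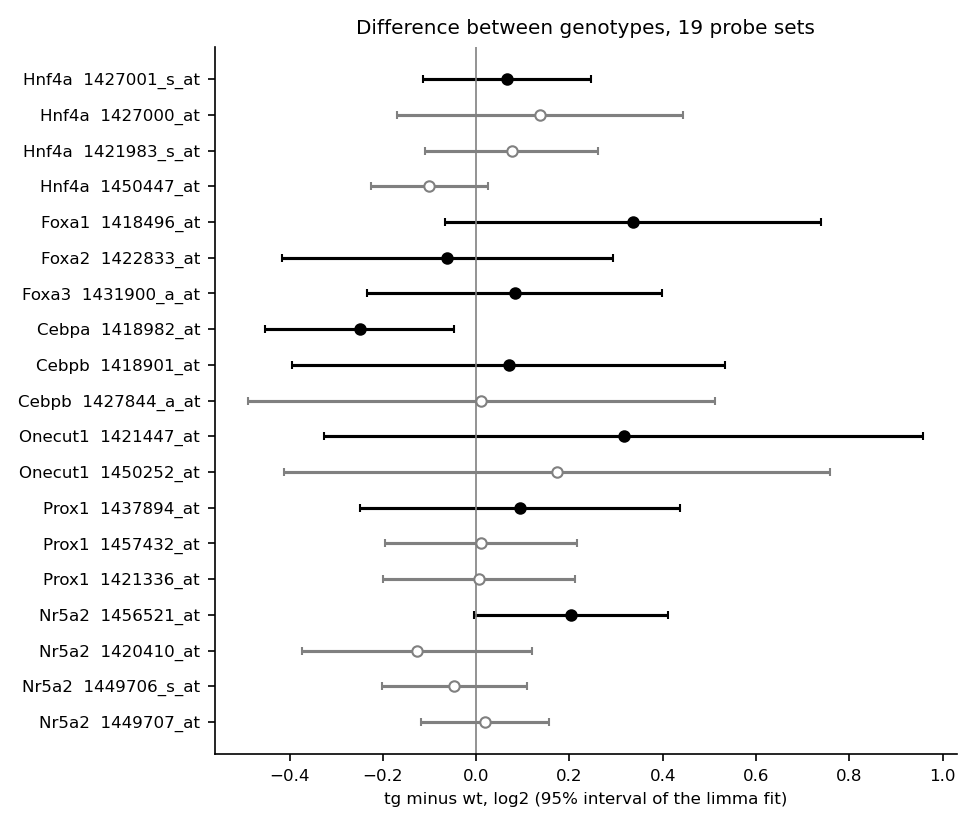
Log2 difference of tg minus wt (x axis) for the 19 probe sets (y axis) with 95% intervals of the limma fit over 20 arrays, filled for the main probe set of each gene. The interval of *Cebpa*, from -0.45 to -0.05, is the only one that leaves out 0; its adjusted p was 0.152.

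The factors nonetheless varied between livers of one genotype, and some varied together. Over the 18 profiles with genotype means removed, 36 pairs of members were compared by permutation, and 3 passed an adjusted p of 0.05 over the 36. *Foxa3* and *Cebpa* rose and fell together (r = 0.73, rho = 0.72, permutation p = 3.5e-04 and 0.00131, adjusted p = 0.0124 and 0.0472). *Foxa1* and *Foxa2* did so as well (r = 0.73, rho = 0.66, permutation p = 6.9e-04 and 0.00345, adjusted p = 0.0124 and 0.0555). The third pair was *Prox1* and *Nr5a2* (r = 0.65, rho = 0.63, permutation p = 0.00403 and 0.00617, adjusted p = 0.0484 and 0.0555). Here *Nr5a2* stands for 1456521_at alone, which 1420410_at followed only in part (r = 0.46, n = 18). Leaving out the 2 profiles farthest from the median on the first gene lowered these r to 0.52, 0.56 and 0.48.

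These relations are between livers and not between genotypes. After the means of the 6 shared numbers were also removed over 20 arrays, where permutation p values come out too small because of the fitted terms, *Foxa3* with *Cebpa* (r = 0.67) and *Foxa1* with *Foxa2* (r = 0.68) remained among 6 pairs that passed, and *Prox1* with *Nr5a2* (r = 0.40, adjusted permutation p = 0.20) did not. Without tg_1386_9 and wt_1386_4, *Prox1* with *Nr5a2* had r = 0.65 and an adjusted permutation p of 0.0810, so that r was as large on 16 profiles while the call was lost, and 2 pairs passed. *Hnf4a* and *Cebpb* (r = 0.62, rho = 0.63) missed the adjusted threshold with 0.0625 and 0.0555 by permutation, but passed it with the means of the shared numbers removed (r = 0.71, adjusted permutation p = 0.0052) and with all 20 arrays taken as separate (r = 0.62, 0.0376). In that last setting 4 pairs passed, the others being *Foxa3* with *Cebpa*, *Foxa1* with *Foxa2*, and *Foxa2* with *Cebpb* in opposite directions (r = -0.60, adjusted permutation p = 0.0488). Both *Foxa2* and *Hnf4a* have a window with ONECUT letters. *Onecut1* had r = 0.56 with *Foxa2* (adjusted permutation p = 0.0902) and r = -0.22 with *Hnf4a* (adjusted permutation p = 0.606), and neither passed.

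**Figure D3:**
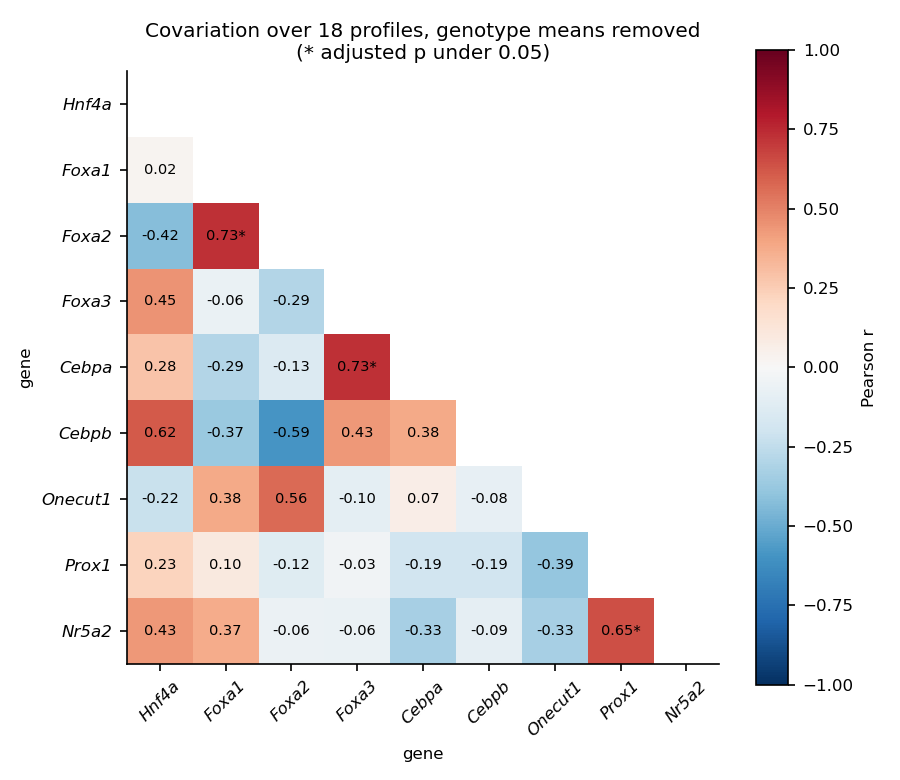
Pearson r of each of the 36 pairs of factors (rows and columns) over 18 liver profiles after genotype means were removed, coloured from -1 (blue) to 1 (red), with an asterisk at an adjusted permutation p under 0.05. The 3 marked pairs are *Foxa1* with *Foxa2*, *Foxa3* with *Cebpa*, and *Prox1* with *Nr5a2*.

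As a description over the same 18 profiles and 11774 genes above the array-wide median, the genes most like *Hnf4a* were *Herpud1* (r = 0.93), *Tbc1d8* (0.91) and *Ttc39b* (0.88). Those most like *Foxa1* were *Zfp472* (0.86), *Ipo9* (0.84) and *Prkar2a* (0.84), and those most like *Foxa2* were *Usp21* (0.88), *Cish* (0.88) and *Zfp157* (0.83). *Foxa3* was followed by *Igfbp4* (0.87), *Erlin1* (0.86) and *Ddx46* (0.85), and *Cebpa* by *Dus1l* (0.82), *Gabrp* (0.82) and *Cep85* (0.81). *Cebpb* was followed by *Mbd1* (0.89), *Ell2* (0.89) and *Cln8* (0.88), and *Onecut1* by *Poli* (0.83), *Arhgef19* (0.76) and *Xbp1* (0.74). The nearest to *Prox1* were *Tent4a* (0.87), *Otud1* (0.86) and *Lsm14a* (0.85), and to *Nr5a2* *Wipf3* (0.90), *Lonp1* (0.90) and *Washc5* (0.90). None of the 9 factors was among the 3 nearest genes of another, which says little with 11774 genes ranked over 18 profiles. How high the top r would be among unrelated genes was not tested. The points share array and normalization.

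*Afp*, the fetal serum protein whose enhancers bind FOXA, was the FOXA target that rose in tg livers, from 4.94 ± 0.93 (SD, n = 8) to 9.05 ± 1.93 (SD, n = 10), a log2 difference of 4.14 (limma, adjusted p = 0.00115). These values, a fold of 17.6, are for the main *Afp* probe set, that with the highest mean. The relations to *Afp* given below rest on this probe set alone. The paper lists the same fold as the largest among its *Afp* probes and plots their median. Its other *Afp* probes changed less, and the lowest did not rise. The main probe set ran from 6.16 in tg_14231_6 to 12.26 in tg_1420_4 among tg livers. The wt profile wt_1386_4, at 6.80, was above tg_14231_6. Set against *Afp* over the 18 profiles with genotype means removed, *Nr5a2* (r = 0.63, rho = 0.66, adjusted permutation p = 0.0332 and 0.0159 over the 9 factors) and *Foxa1* (r = 0.61, rho = 0.55, adjusted permutation p = 0.0332 and 0.0412) were higher where *Afp* was higher. *Cebpa* was lower there (r = -0.58, rho = -0.73, adjusted permutation p = 0.0364 and 0.0117). The unadjusted permutation p values of r lay between 0.0055 and 0.013 for these 3 factors. *Foxa3* passed by rho and not by r (r = -0.42, rho = -0.62, adjusted permutation p = 0.107 and 0.0229). *Hnf4a* (r = -0.12) and *Onecut1* (r = 0.06) did not pass. For *Nr5a2* these values rest on 1456521_at alone, which 1420410_at followed only in part (r = 0.46, n = 18). Its other probe sets were not set against *Afp*.

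The relations to *Afp* differed in how far they rested on single livers. Without the 2 profiles farthest from the *Afp* median, r was 0.59 for *Nr5a2*, -0.54 for *Cebpa* and 0.36 for *Foxa1*. Among the tg livers alone (n = 10), r was 0.82 for *Foxa1*, 0.74 for *Nr5a2*, 0.72 for *Prox1*, -0.69 for *Foxa3* and -0.66 for *Cebpa*, with an adjusted permutation p of 0.0397 for *Foxa1* and of 0.0632 to 0.0682 for the others. Without the 2 tg livers farthest from the tg *Afp* median, r was 0.62 for *Foxa1*, 0.77 for *Nr5a2* and 0.71 for *Prox1*. It was -0.45 for *Foxa3* and -0.59 for *Cebpa*, and for *Hnf4a* it went from 0.07 to 0.73. The livers with the highest *Afp* were tg_1420_4 and both tg livers of set S, and r without them was not computed. Among the 8 wt profiles, where *Afp* averaged 4.94, r was -0.03 for *Foxa1*, 0.07 for *Nr5a2* and -0.53 for *Cebpa*. The difference between genotypes in these r was not tested. With the means of the shared numbers removed too (20 arrays), 6 of the 9 factors passed. Permutation p values come out too small there because of the fitted terms, and the nearly identical wt arrays entered separately. In that setting r was 0.66 for *Foxa1*, 0.73 for *Nr5a2*, 0.57 for *Foxa2*, -0.65 for *Cebpa*, -0.53 for *Foxa3* and -0.58 for *Cebpb*. *Afp* was chosen after its values had been seen.

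**Figure D4:**
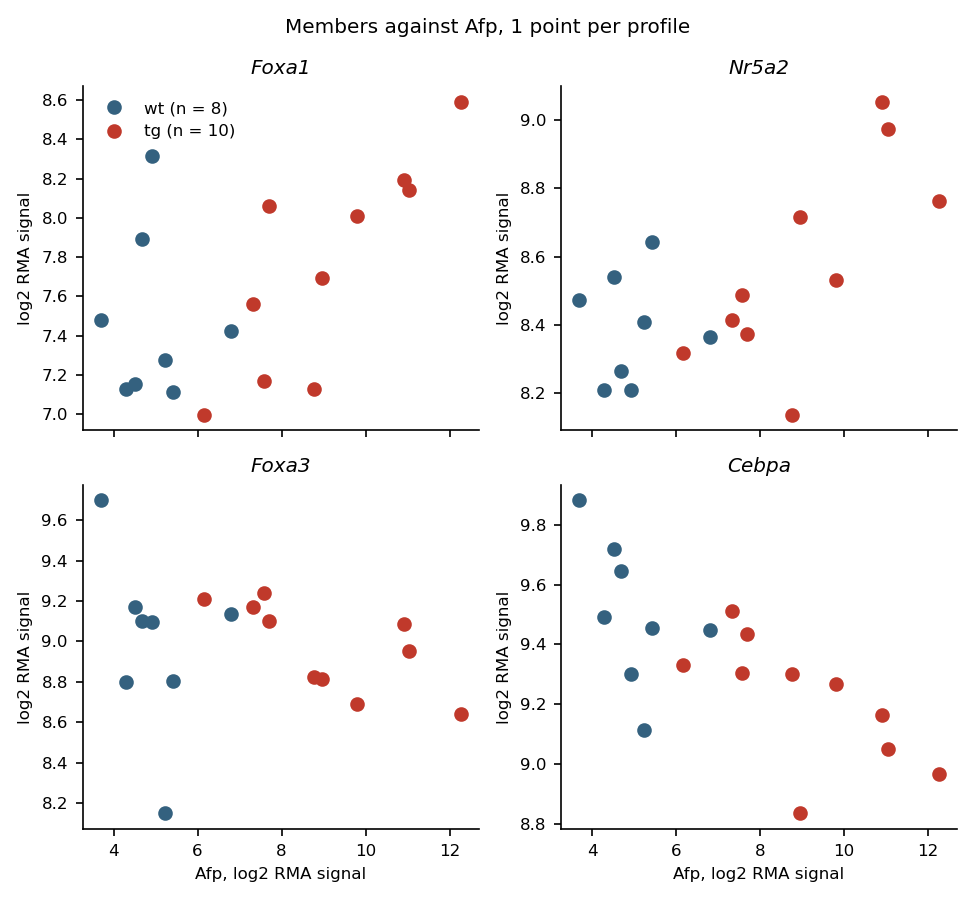
Log2 RMA signal of *Foxa1*, *Nr5a2*, *Foxa3* and *Cebpa* (y axes) against that of *Afp* (x axes), for the main probe set of each gene. There is 1 point per profile, for 8 wt profiles and 10 tg livers. Among tg livers *Foxa1* and *Nr5a2* are higher and *Foxa3* and *Cebpa* lower where *Afp* is higher, with r of 0.82, 0.74, -0.69 and -0.66.

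Other transcription factors of the liver were measured for 26 of 28 listed genes, and limma called 0 of them, with 0 higher and 5 lower at an unadjusted p under 0.05. Over all genes, 2.98% were called higher and 0.967% lower, and 13.0% and 12.2% had an unadjusted p under 0.05 on either side. The median difference was -0.03, against -0.02 over all genes. The lowest were *Mlxipl*, the glucose-sensing ChREBP (-0.51, limma adjusted p = 0.0737), and *Tbx3*, a hepatoblast factor that marks the zone around central veins (-0.50, adjusted p = 0.176). The highest were the xenobiotic receptor *Nr1i2* (0.26) and *Cebpd* (0.19). Partners and inhibitors of the members gave 0 calls of 17, with 3 higher and 2 lower at an unadjusted p under 0.05, between *Trib1* (-0.33) and *Cop1* (-0.18), which together degrade C/EBPα, and *Src* (0.35) and the C/EBP inhibitor *Ddit3* (0.38).

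Known targets gave few calls. Of HNF4A targets, 0 of 17 were called and 3 were lower at an unadjusted p under 0.05, from *Cyp8b1* of bile acid synthesis (-0.32) and the clotting factor gene *F7* (-0.17) to *F12* (0.09) and the bile salt carrier *Slc10a1* (0.13). Of FOXA targets, 1 of 9 was called, *Afp*, followed by *Igfbp1*, a fasting gene (0.86, interval -0.22 to 1.93), with *Tat* (-0.12) and *Pck1* (-0.04) lowest. Of C/EBP targets, 0 of 14 were called and 1 was higher and 1 lower at an unadjusted p under 0.05, between the iron hormone *Hamp* (-0.53), the urea cycle gene *Arg1* (-0.25), the receptor *Il6ra* (0.20) and *G6pc* of glucose release (0.28). Of ONECUT1 targets, 0 of 7 were called, 1 being lower at an unadjusted p under 0.05: *Cyp2c38* (-0.91, limma adjusted p = 0.130), and the rest ran from *Foxa2* (-0.06) to *Hnf4a* (0.07) and *G6pc* (0.28). Of NR5A2 and PROX1 targets, 0 of 10 were called and 1 was higher at an unadjusted p under 0.05, between *Cyp8b1* (-0.32) and *Nr0b2*, the repressor SHP (-0.12), and *Abcg8* (0.16) and the lipoprotein receptor *Scarb1* (0.22).

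Progenitor and mesenchymal transcription factors gave 1 call of 29, with 5 higher and 3 lower at an unadjusted p under 0.05. *Sox4*, a factor of biliary and progenitor cells, rose from 5.22 ± 0.55 (SD, n = 8) to 6.36 ± 0.75 (SD, n = 10), by 1.07 log2 (limma, adjusted p = 0.0347). Next came *Elf3* (0.51), while *Id2* (-0.38) and *Id3* (-0.28) were lowest, and the list's median was -0.0050. *Sox4* was not called without set S nor with the nearly identical wt arrays averaged. Acute phase genes gave 1 call of 16, *Hpx* of heme binding (0.23, limma adjusted p = 0.0144), with *Lcn2* (1.61) and *Orm2* (0.34) highest and *Socs3* (-0.62) and *Il1rn* (-0.04) lowest. Clock genes, listed because *Dbp* and its kin swing with the hour of sampling, gave 0 calls of 15 in limma and 0 at an unadjusted p under 0.05, from *Dbp* (-0.68) and *Ciart* (-0.28) to *Per1* (0.11) and *Arntl* (0.26).

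**Figure D5:**
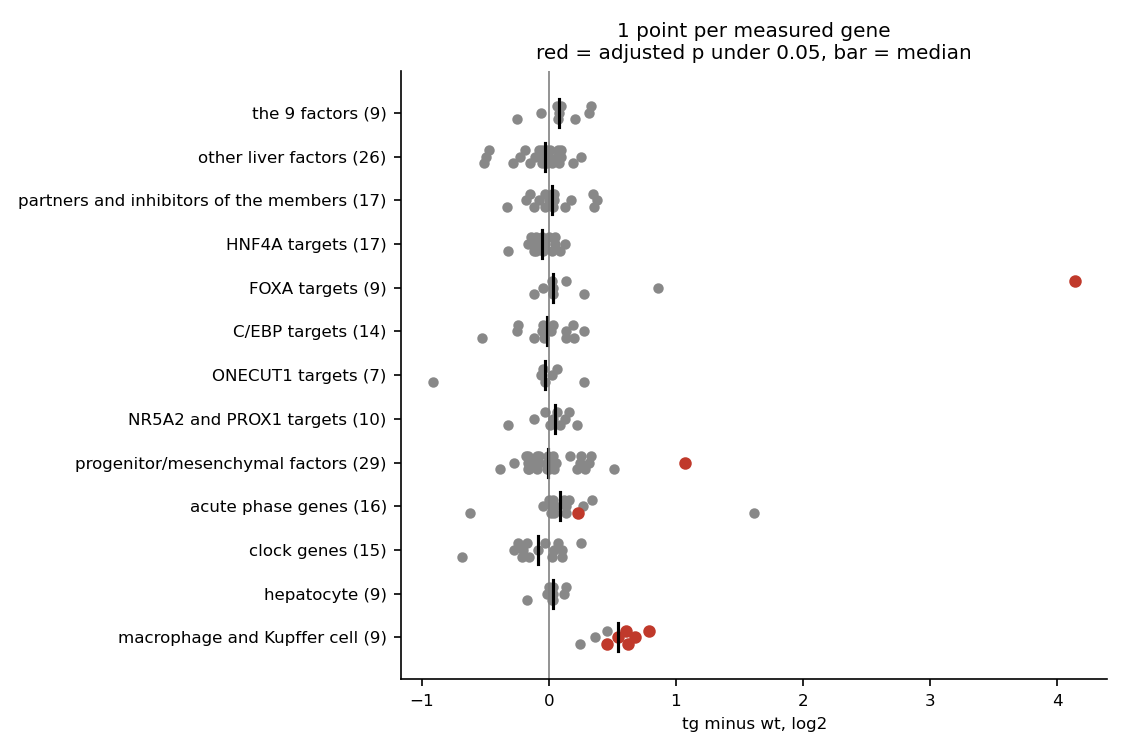
Log2 difference of tg minus wt (x axis) for the measured genes of each list (y axis, with their number), 1 point per gene, red where the adjusted p in limma was under 0.05, with a bar at the list's median. The 9 factors hold 0 red points, and 6 of 9 macrophage and Kupffer cell markers are red. Over all genes, 2.98% were called higher and 0.967% lower, so 0 of 9 is close to that share.

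The hepatocyte markers themselves, which define the tissue, had high signal in all livers. Their mean ran from 13.46 to 13.59 in tg and from 13.45 to 13.58 in wt. Whether differences are compressed at signals this high was not tested. Of these markers limma called 0 of 9, 1 being higher (*Cps1*, 0.14) and 1 lower (*Asgr1*, -0.17) at an unadjusted p under 0.05. Among cholangiocyte markers 1 of 9 was called, *Pkhd1* (0.94, limma adjusted p = 0.0400), while 5 of the 9, *Krt19*, *Krt7*, *Epcam*, *Cftr* and *Cldn4*, stayed under the array-wide median. With the nearly identical wt arrays averaged, *Pkhd1* was not called, and of the macrophage and Kupffer cell markers 4 were (*Cd68*, *Clec4f*, *Cd5l* and *C1qa*) in place of 6. Of the acinar cell markers of the pancreas, an organ that shares several of these factors, limma called 0 of 9, with 1 lower at an unadjusted p under 0.05. Neutrophil markers gave 0 calls of 7 and 0 at an unadjusted p under 0.05, and stellate cell markers 0 of 8, with 2 higher at that level. Without set S, limma called 1 of the 189 genes listed and measured, *Afp*, in place of 11. The limma p values rest on all 20 arrays, with the nearly identical wt arrays entered separately. With those averaged into 18 profiles, limma called 276 probe sets in place of 1149 and 7 listed genes in place of 11.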

How the data were processed

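Biotinylated cRNA of each liver was hybridized to an Affymetrix Mouse Genome array. The authors scanned the arrays and normalized them with RMA, and the deposited table holds the log2 values, 1 column per array, with array medians between 4.46 and 4.55. The precision is limited by the number of arrays. The RMA version and genome build are not stated in the labels or methods. Symbols came from the supplied probe annotation, with 34958 probe sets naming 1 gene, 932 several and 9211 none listed, and RefSeq (GRCm38.p6) held the symbol of 34897.

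Using R 4.3.3 and limma 3.58.1, genotype was fitted to all 20 arrays, and p values were Benjamini-Hochberg adjusted over 45101 probe sets with a threshold of 0.05. A gene was represented by its probe set with the highest mean. Arrays of a genotype with an SD of log2 differences under 0.2 were averaged into profiles for means and SDs. Permutation tests, two-sided, drew 100000 relabelings, or all 43758 splits where called exact, in Python 3.11.15 with numpy 2.4.6 and scipy 1.17.1. The fit and the correlations were tested on simulated data. Of 201 listed genes, 189 were measured; the others were not analysed here. Every member is named; of each list, called genes (at most 6) and the 2 highest and 2 lowest, and of likeness the 3 nearest genes. Members and lists were chosen with earlier results of these data known. The closing section gives the alternatives tried: label number terms, array subsets, other normalization, filters and fits. RefSeq windows were matched by symbol for 9 of 9 genes.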

Additional observations from a re-analysis of the deposited data

Results flagged for a closer look

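Each probe set of the 9 factors was examined in both genotypes for a single liver standing far from the rest, 38 groups in all, and 2 had one. Chance gives about 1 in 20 such groups. In the *Hnf4a* probe set 1427000_at, tg_1423_2-8_1 stood at 10.71, and the next highest of the 10 tg livers at 10.24, a gap of 0.585 of the range. In the *Hnf4a* probe set 1450447_at, wt_1386_4 stood at 4.65, and the next lowest of the 8 wt profiles at 4.88, a gap of 0.607 of the range. The main *Hnf4a* probe set showed neither. wt_1386_4 is also the wt array closest to a tg array.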

How the results depend on the processing

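No setting called any of the 19 probe sets: the count was 0 in 20 fits that each left out 1 array and in 13 other fits. With 2.55% of all probe sets called in the main fit, 0 of 19 is close to that share. A constant count of 0 therefore says little about the factors. The count over all 45101 probe sets, 1149, moved far more: 463 to 2460 when 1 array was left out (lowest without tg_1420_4, highest without tg_1386_9), 276 with the nearly identical wt arrays averaged, 568 if tg_1386_9 and wt_1386_4 were dropped as well, 74 without set S, 166 without tg_1420_4 and the tg livers of set S, 762 with array weights and 1791 with the label number as a random block. With the label number as a replicate block it was 2241; the mean correlation of residuals between genotypes was 0.0790 to 0.382 by number, and highest for the own number in 4 of 6, so the numbers do not by themselves pair the livers. The rule for pairing asked for a correlation over 0.1 in every number, which 5 of 6 met. The block called 0 member probe sets and 15 listed genes, adding *Mlxipl* (-0.51, limma adjusted p = 0.0396), *Dbp* (-0.68, 0.0208), *Csf1r* and *Timd4*.

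Of the listed genes, 11 were called, 15 with the block, 13 with the mean of a gene's probe sets, 7 with those wt arrays averaged and 1 without set S. *Cebpa* kept its direction in every setting, with adjusted p from 0.0892 to 0.573, and had an unadjusted permutation p of 0.0160 (difference -0.290, exact) and 0.0255 (-0.249, 20 arrays). Signs turned for estimates near 0, and the cause was not tested. With the wt arrays averaged, *Foxa3* was -0.0214, *Cebpb* 1427844_a_at -0.0222 and *Prox1* 1421336_at -0.0162 (in the exact test -0.0214, -0.0221 and -0.0162). With tg_1386_9 and wt_1386_4 also dropped, they were -0.0234, -0.0351 and -0.0104, and *Cebpb* 1418901_at was -0.0077. Without set S, *Prox1* was -0.0087 (1437894_at), -0.0677 (1457432_at) and -0.0468 (1421336_at). Without tg_1420_4 and the tg livers of set S these were -0.103, -0.125 and -0.0970, and *Nr5a2* 1449707_at was -0.0189. Array weights gave -0.0476 (*Prox1* 1457432_at), -0.0603 (*Prox1* 1421336_at) and -0.0095 (*Nr5a2* 1449707_at). *Cebpb* 1427844_a_at was -0.0505 after renewed quantile normalization and -0.0145 with *Xist* signal, weak on all arrays, as a covariate.

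Leaving out 1 array gave -0.151 to 0.0207 for *Foxa2*, -0.0034 to 0.172 for *Foxa3*, -0.0612 to 0.168 for *Cebpb* 1418901_at and -0.136 to 0.0948 for 1427844_a_at, -0.0460 to 0.0525 for *Prox1* 1457432_at and -0.0511 to 0.0424 for 1421336_at, and -0.0177 to 0.0392 for *Nr5a2* 1449707_at. Of 36 pairs, 3 covaried; 6 did with label numbers removed too, where the fitted terms make permutation p values too small, 4 did with 20 separate arrays, and 2 without tg_1386_9 and wt_1386_4. The settings for covariation and *Afp* were added after seeing the data.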
